A study of Mus musculus with 9 samples.

Results

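The leukocyte miRNAs of the mouse liver were described here as a set of 6 rows of a table of 1140 mature miRNAs. The rows were chosen by name, for the white blood cells in which these miRNAs are known to be abundant, and they were mmu-miR-223-3p, mmu-miR-142a-3p, mmu-miR-142a-5p, mmu-miR-142b, mmu-miR-150-5p and mmu-miR-342-3p. Earlier results of these data were known when they were chosen, so counts of members set beside the share of all miRNAs are descriptive. The rows of mmu-miR-142a-3p and mmu-miR-142b held the same count in 9 of 9 samples, so they were counted once and 5 distinct miRNAs were analysed. The names are written below without the species prefix.

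Small RNA was sequenced from whole livers of C57BL/6 males. In the control group (n = 3) animals were injected with normal saline for 8 weeks, and in the TAA group (n = 3) with thioacetamide (TAA), a hepatotoxic compound that causes fibrosis on repeated dosing. The recovery animals (n = 3) had an equal TAA course and then 8 more weeks without TAA, so they were older at death than the other mice, and recovery and elapsed time cannot be told apart. Each library came from a different mouse, and no genotype or allele differed between the groups. Whole liver holds hepatocytes, endothelial cells, stellate cells, biliary cells, resident and infiltrating leukocytes and the blood left in the vessels.

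miRNAs are short RNAs that guide Argonaute proteins to partly complementary mRNAs, mostly through bases 2 to 8 at their 5′ end, the seed. Some miRNAs are made almost only in blood cell lineages, and their level in a solid tissue is therefore often read as a trace of leukocytes. miR-223-3p is abundant in neutrophils, monocytes and macrophages. The miR-142 arms are found across the haematopoietic lineages. miR-150-5p is abundant in mature B and T lymphocytes. miR-342-3p is found in lymphoid and myeloid cells. In bulk tissue, more cells of a type and more of an miRNA per cell cannot be told apart.

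The mature sequences are shown because they separate the members by seed and because 1 pair of them overlaps in the genome. They are RefSeq sequences of build GRCm38.p6, written 5′ to 3′ with the seed in capitals.
miR-223-3p: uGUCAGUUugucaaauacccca
miR-142a-3p: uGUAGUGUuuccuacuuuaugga
miR-142a-5p: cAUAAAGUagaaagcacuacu
miR-142b: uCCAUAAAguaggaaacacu
miR-342-3p: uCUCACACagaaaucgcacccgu
No 2 of these seeds were equal, and each was found in only 1 row among the rows of the table with a RefSeq sequence.

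miR-223-3p lies at chrX:96242884-96242905 on the plus strand. Its hairpin gene lies in an exon of F630028O10Rik, a non-coding gene on the same strand. miR-142a-5p (chr11:87756867-87756887) and miR-142a-3p (chr11:87756903-87756925) are the 5′ and 3′ arms of 1 hairpin on the plus strand, in an intron of the non-coding gene Mir142hg. miR-142b (chr11:87756906-87756925) is read from the minus strand of the same locus, and all of its 20 bases lie opposite miR-142a-3p. miR-342-3p (chr12:108658680-108658702, plus strand) lies in an intron of Evl, a protein-coding gene for an actin regulator. The hairpin gene of miR-150 (chr7:45121757-45121821, plus strand) overlapped no other annotated gene.

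The equal counts of miR-142a-3p and miR-142b did not stand alone in the table. Among 25 pairs of rows whose mature sequences overlap by at least 15 bases on opposite strands and that held at least 20 counts together, 12 had totals within 2% of their sum and 4 were equal in all 9 samples. The totals of 11 pairs were at least 2-fold apart. Which of the 2 miR-142 rows the reads belong to cannot be told apart from the table, and the values are given below under the name miR-142a-3p.

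Total counts ranged from 9071847 to 12983378 per library. The 5 most abundant rows took 79.7–80.9% of each control library, 69.2–74.7% of each TAA library and 77–80.9% of each recovery library, and more rows were detected in TAA livers (806–828) than in control (631–663) or recovery livers (675–722). The scaling of the libraries therefore bears on every level and fold change. Values are given as counts per 1000000 counts scaled by TMM factors (CPM), which hold most miRNAs level, and beside them as the deposited TPM, which is the share of the library total. Against TMM, library totals raised the median log2 fold change of all miRNAs by 1.12 in TAA vs control, shifted it by -0.86 in recovery vs TAA and raised it by 0.19 in recovery vs control. The liver label was checked by the hepatocyte miRNA miR-122-5p, which had 203000 ± 10500 TPM in control livers, 113000 ± 6750 in TAA livers and 197000 ± 38500 in recovery livers (SD, n = 3). The other 2 hepatocyte miRNAs of the list did not follow it on this scale, with means of 224, 216 and 234 TPM for miR-122-3p and 5.83, 13.6 and 8.24 TPM for miR-802-5p. In CPM miR-122-3p did follow it, with means of 294, 138 and 279, and miR-802-5p did not, with 7.61, 8.75 and 9.8.

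The members were a small part of the liver miRNAs. In control livers miR-142a-5p ranked 85 of 1140 by mean TPM, miR-150-5p 149, miR-142a-3p 189, miR-223-3p 193 and miR-342-3p 196. Their ranks in TAA livers were 77, 135, 169, 161 and 173, in the same order. In recovery livers they were 90, 163, 198, 200 and 192. Summed over the 5 members, the level was 209 ± 14 CPM in control, 311 ± 22.7 CPM in TAA and 205 ± 42.9 CPM in recovery livers (SD, n = 3). miR-142a-5p made up 67.6%, 59.2% and 65.6% of the summed CPM in these groups, so the sum mostly follows 1 row.

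To ask how the leukocyte miRNAs differed in the fibrotic liver, the TAA group was compared with the control group. All 5 members were higher in every TAA liver than in every control liver, on CPM and on TPM. No overlap with TAA above control was found for 39.3% of the 420 miRNAs tested on CPM and for 73.3% on TPM. A differentially expressed miRNA (DEM) was defined by an FDR below 0.05 in edgeR's quasi-likelihood test and a fold change of at least 2. By this rule 1 of 5 members, miR-223-3p, was an up-regulated DEM, against 25% of all miRNAs tested. By FDR alone 4 of 5 members were higher, against 31.9%, and the member that missed was miR-142a-5p. With each liver left out in turn 2 to 3 of 5 passed, with 2 without control replicate 1, control replicate 2 or TAA replicate 1. miR-223-3p and miR-150-5p passed in 6 of these 6 fits, miR-342-3p in 2 and miR-142a-3p in 1. The median log2 fold change of the members was 0.74, and that of all miRNAs tested was 0.11.

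**Figure D1:**
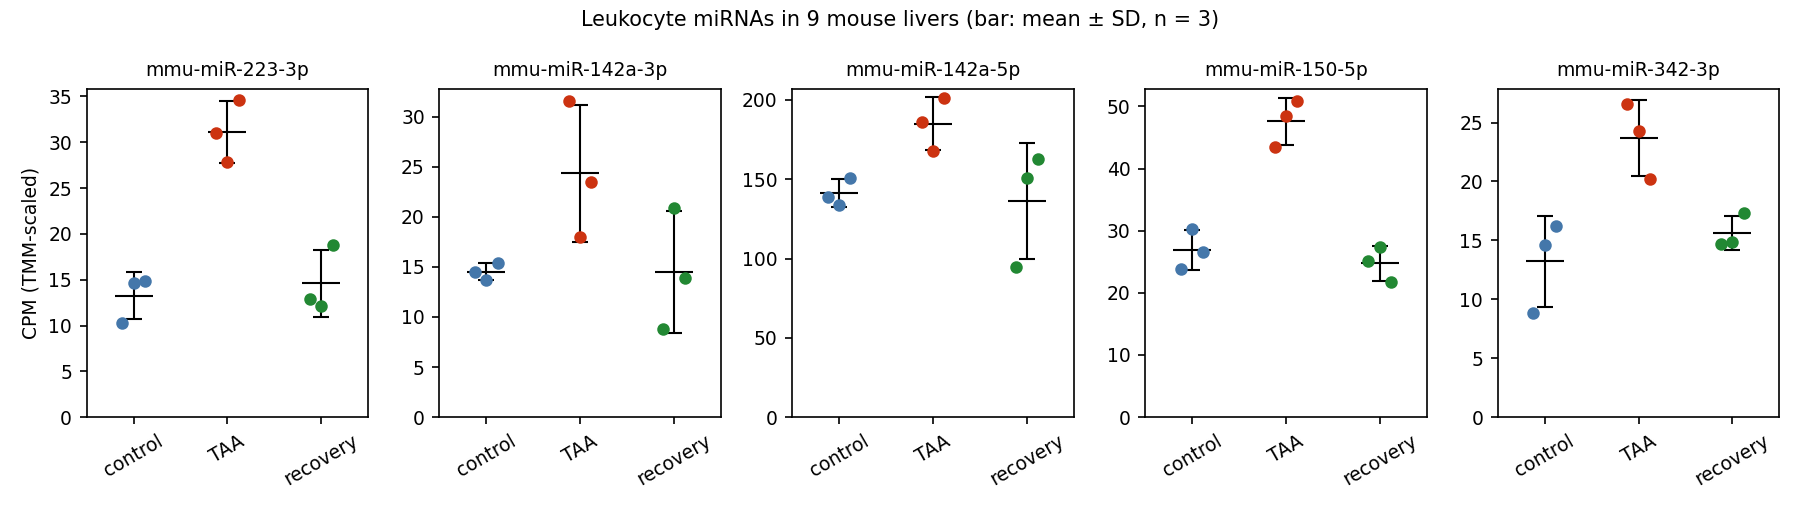
Level of each leukocyte miRNA (CPM after TMM scaling, linear axis from 0) in the 3 control, 3 TAA and 3 recovery livers; points are livers and bars are the mean ± SD. The TAA points lie above all control points in each panel, and only for miR-142a-3p does a recovery liver (20.9 CPM) lie above a TAA liver (18 CPM).

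miR-223-3p, the myeloid member, had 10.3, 14.6 and 14.9 CPM in the 3 control livers, 31, 27.8 and 34.6 CPM in the TAA livers and 12.9, 12.1 and 18.8 CPM in the recovery livers. The TAA values stood clear of both other groups, which overlapped with each other. Its log2 fold change in TAA vs control was 1.15 (SE 0.199, 95% interval 0.68 to 1.61, edgeR FDR = 0.00217), or 2.21-fold. Without control replicate 1, the lowest control liver, the log2 fold change was 0.996, just under the 2-fold limit, and no member was then a DEM.

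miR-150-5p, the lymphocyte member, had 23.9, 30.3 and 26.5 CPM in control livers, 43.5, 48.5 and 50.8 CPM in TAA livers and 25.1, 27.4 and 21.8 CPM in recovery livers. Its spread within each group was small beside the distance of the TAA group from the others. The log2 fold change in TAA vs control was 0.74 (SE 0.167, 95% interval 0.35 to 1.13, edgeR FDR = 0.00697), or 1.67-fold, below the 2-fold limit.

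miR-342-3p had 8.85, 14.6 and 16.2 CPM in control livers, 26.6, 24.3 and 20.2 CPM in TAA livers and 14.7, 14.9 and 17.3 CPM in recovery livers. Control replicate 1 was again the lowest of the 9. The log2 fold change in TAA vs control was 0.76 (SE 0.248, 95% interval 0.18 to 1.34, edgeR FDR = 0.0337), or 1.69-fold.

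miR-142a-3p had 14.5, 13.7 and 15.4 CPM in control livers, 31.6, 18 and 23.5 CPM in TAA livers and 8.76, 20.9 and 13.9 CPM in recovery livers. The TAA and recovery livers were spread widely. The control livers lay closer together (5.92% of their mean, SD) than the counting error of 9.12% that their counts give. The log2 fold change in TAA vs control was 0.65 (SE 0.211, 95% interval 0.15 to 1.14, edgeR FDR = 0.0335), or 1.57-fold.

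miR-142a-5p, the other arm of the same hairpin and the most abundant member, had 139, 134 and 151 CPM in control livers, 186, 168 and 201 CPM in TAA livers and 94.6, 151 and 163 CPM in recovery livers. The lowest TAA liver lay above the highest control liver. The log2 fold change was nevertheless the smallest of the 5 members, 0.30 (SE 0.124, 95% interval 0.01 to 0.59), with an edgeR FDR of 0.0704.

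The size of the difference depended on the scaling, and its direction did not in any of the 18 alternatives run for each member. With library totals in place of TMM factors, 5 of 5 members were up-regulated DEMs in TAA vs control, against 57.4% of all miRNAs tested. The log2 fold changes were then 2.27 for miR-223-3p, 1.76 for miR-142a-3p, 1.42 for miR-142a-5p, 1.87 for miR-150-5p and 1.88 for miR-342-3p. Their median of 1.87 stood beside a median of 1.23 over all miRNAs tested. On the TPM scale miR-223-3p went from 10.1 ± 1.67 in control to 48.6 ± 6.55 in TAA livers, and miR-142a-5p from 108 ± 7.63 to 289 ± 33.1 (SD, n = 3).

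**Figure D2:**
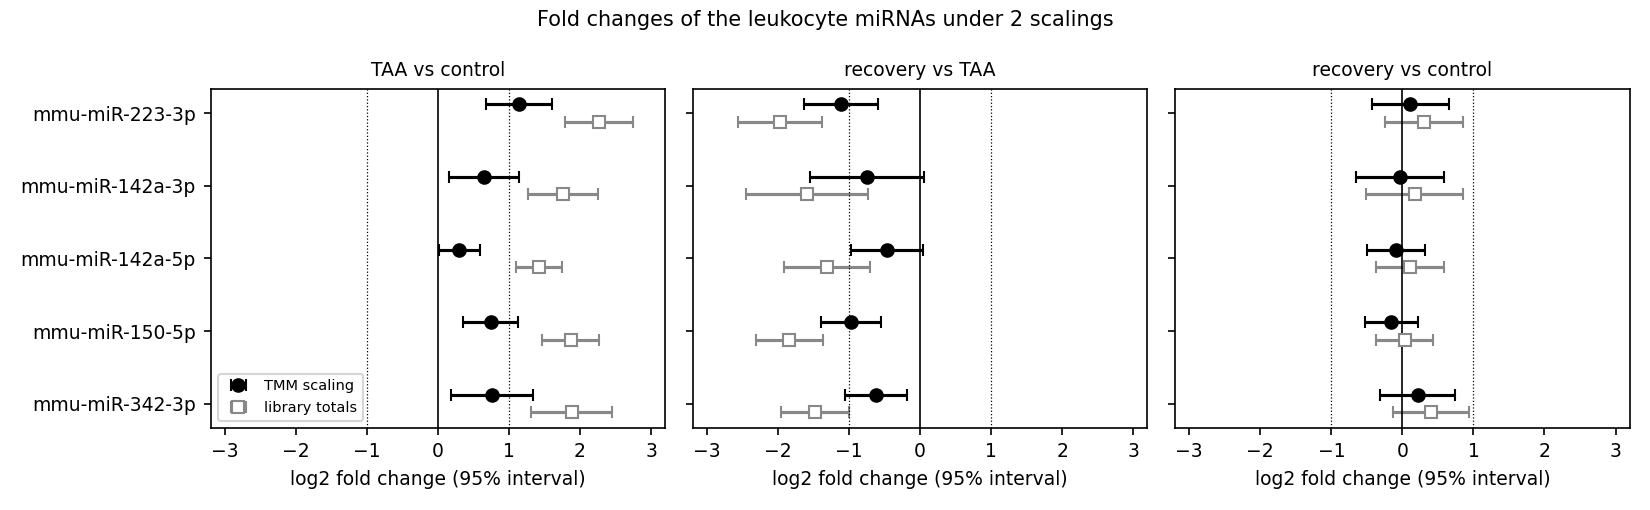
Log2 fold change of each member with its 95% interval for each pair of groups; filled circles use TMM factors, open squares use library totals, and dotted lines mark a fold change of 2. With TMM factors only miR-223-3p lies past the dotted line, at 1.15 in TAA vs control and at -1.11 in recovery vs TAA, whereas with library totals all 5 lie past it in both.

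To ask how the leukocyte miRNAs differed after TAA withdrawal, the recovery group was compared with the TAA group. This comparison shares the TAA livers with the one above, so the 2 are not independent. With TMM scaling 1 of 5 members, again miR-223-3p, was a down-regulated DEM, against 14.5% of the 440 miRNAs tested. By FDR alone 3 of 5 members were lower, against 20.7%. In 4 of 5 members every recovery liver lay below every TAA liver in CPM, against 28.9% of all miRNAs tested, and on TPM this held for 5 of 5, against 63.6%.

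miR-223-3p fell by 1.11 on the log2 scale (SE 0.224, 95% interval -1.63 to -0.59, edgeR FDR = 0.00674). Without recovery replicate 1 its log2 fold change was -0.96 and no member was a DEM, and without recovery replicate 2 it was -0.97 and the only DEM was miR-150-5p. miR-150-5p fell by 0.97 (SE 0.18, 95% interval -1.39 to -0.55, FDR = 0.00487), just short of the 2-fold limit. miR-342-3p fell by 0.62 (SE 0.19, 95% interval -1.06 to -0.18, FDR = 0.0355). This call was not stable, since the FDR of miR-342-3p was 0.0574 with the size factors of DESeq2, 0.0589 with all 9 samples in the fit and 0.0803 without a filter on low counts, and with each liver left out it passed in 1 of 6 fits (FDR from 0.0436 to 0.155).

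The miR-142 arms did not pass the test in recovery vs TAA. The log2 fold change was -0.75 (95% interval -1.55 to 0.05, edgeR FDR = 0.123) for miR-142a-3p and -0.46 (95% interval -0.97 to 0.04, edgeR FDR = 0.133) for miR-142a-5p. Both had their lowest value of the 9 livers in recovery replicate 1. Without it the log2 fold changes were -0.42 for miR-142a-3p and -0.19 for miR-142a-5p. That of miR-142a-3p was -0.49 without TAA replicate 1 and -1.09 without recovery replicate 2. In recovery replicate 1 miR-142a-3p rested on 82 counts, the lowest member count of any library, with a Poisson interval of 65.2 to 102 counts that covers counting error only. With library totals 5 of 5 members were down-regulated DEMs, against 46.1% of all miRNAs tested, with log2 fold changes from -1.31 for miR-142a-5p to -1.97 for miR-223-3p.

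The recovery group was also compared with the control group. With edgeR 0 of 5 members were DEMs, against 11.3% of the 391 miRNAs tested in either direction. By unadjusted p below 0.05, by DESeq2 and by limma on TPM the number of members was also 0, and the groups overlapped for all 5. The log2 fold change was 0.11 for miR-223-3p (95% interval -0.42 to 0.65), -0.04 for miR-142a-3p (-0.66 to 0.58) and -0.09 for miR-142a-5p (-0.50 to 0.32). It was -0.16 for miR-150-5p (-0.53 to 0.21) and 0.22 for miR-342-3p (-0.32 to 0.75). With library totals all 5 were positive, from 0.03 for miR-150-5p to 0.41 for miR-342-3p. Since the widest of these intervals ran from -0.66 to 0.58, the test does not show that recovery livers had the control level.

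The 2 arms of the miR-142 hairpin and the balance of myeloid and lymphoid members were compared as ratios of counts within a library, which no scaling factor can change. With 3 livers against 3 the exact two-sided permutation test cannot give a p below 0.1, and p-values were adjusted over 9 tests.

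Control livers had 9.54, 9.74 and 9.73 counts of miR-142a-5p per count of miR-142a-3p. TAA livers had 5.86, 9.28 and 8.54, and recovery livers 10.7, 7.18 and 11.6. Each TAA liver lay below the control livers, by 0.32 in the mean on the log2 scale (2.95 ± 0.35 against 3.27 ± 0.017, exact permutation p = 0.1, adjusted p = 0.45). Counting error alone gives a control ratio a standard error of 0.12 to 0.15 on the log2 scale, more than the spread of the control livers, and TAA replicate 2 lay within it of the lowest control liver. Without TAA replicate 1 the difference was -0.12. The recovery livers lay on both sides of the control livers, and their mean log2 ratio was -0.0039 from the control mean (exact permutation p = 1).

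For miR-223-3p per count of miR-150-5p, control livers had 0.432, 0.484 and 0.564, TAA livers 0.711, 0.573 and 0.681 and recovery livers 0.516, 0.444 and 0.862. Every TAA liver lay above every control liver, with a mean difference of 0.41 on the log2 scale (exact permutation p = 0.1, adjusted p = 0.45). Counting error alone gives a control ratio a standard error of 0.17 on the log2 scale. The lowest TAA liver (0.573) lay within it of the highest control liver (0.564). Recovery livers reached from within the control range to above every TAA liver (exact permutation p = 0.6 against TAA and 0.6 against control, adjusted p = 0.771 for each).

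For miR-342-3p per count of miR-150-5p the control range (0.371, 0.484 and 0.614) held the TAA values (0.612, 0.501 and 0.398), with a mean difference of 0.05 on the log2 scale (exact permutation p = 0.8, adjusted p = 0.9). Recovery livers had 0.588, 0.544 and 0.795, 0.40 above control in the mean (exact permutation p = 0.3, adjusted p = 0.675). No ratio passed the adjusted threshold, which the design could not reach.

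**Figure D3:**
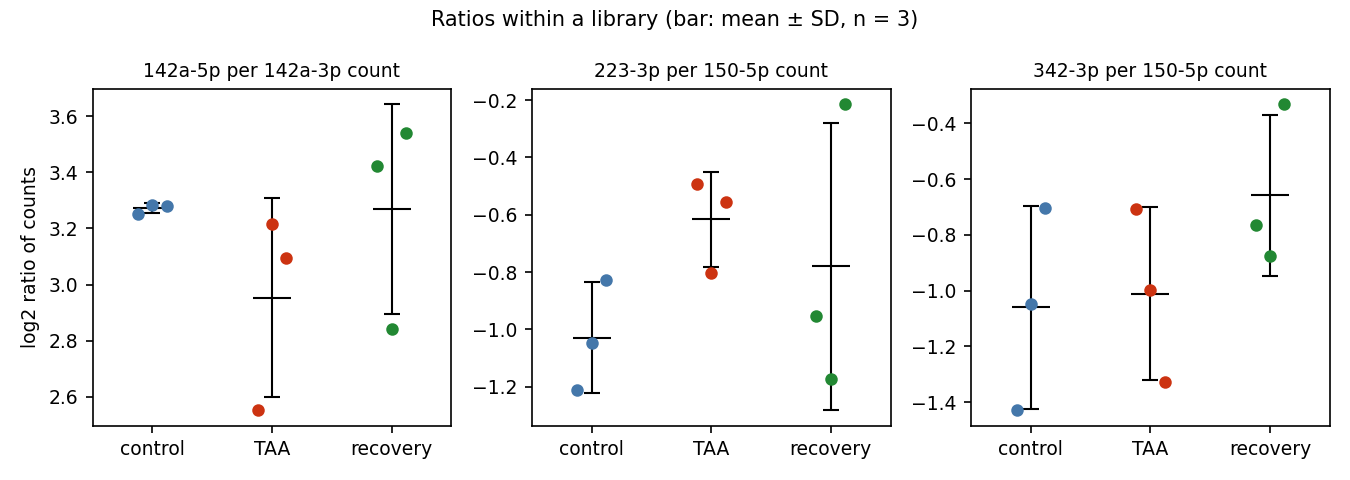
Log2 ratio of the counts of a pair of leukocyte miRNAs in each of the 9 livers (points; bars are the mean ± SD of 3). In the left and middle panels the TAA points do not overlap the control points, whereas in the right panel they do. In both of those panels the nearest TAA and control points lie within counting error of each other. The vertical axes do not start at 0 and differ between panels.

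The other arms of the same hairpins were measured at lower levels. miR-223-5p, the minor arm of miR-223, had 6.52 ± 1.81 CPM in control, 17.1 ± 1.52 CPM in TAA and 6.1 ± 1.6 CPM in recovery livers (SD, n = 3). It was a DEM in TAA vs control (log2 fold change 1.31, edgeR FDR = 0.00244) and again with recovery vs TAA (-1.501, FDR = 0.00342), as miR-223-3p was. miR-342-5p, with 0.928 ± 0.479, 1.89 ± 0.119 and 1.2 ± 0.259 CPM, passed in neither with TMM scaling (log2 fold changes 0.88 and -0.68, FDR = 0.0959 and 0.107). With library totals it was a DEM in both (log2 fold changes 1.99 and -1.55, edgeR FDR = 0.00313 and 0.0026). Of all miRNAs tested, 57.4% and 46.1% were then DEMs in these directions. miR-150-3p had 2 to 11 counts per library, too few for the filter except in recovery vs TAA, where its log2 fold change was 0.50 (FDR = 0.504).

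A list of 8 other miRNAs known from immune cells was set beside the members. In TAA vs control 4 of 8 were up-regulated DEMs and 1 was down-regulated, with a median log2 fold change of 0.87, which was unchanged when the row without counts in control livers was placed at its lower bound. In recovery vs TAA 2 of 8 were down-regulated DEMs and 0 up-regulated (median -0.57), and in recovery vs control 0 of the 7 tested were DEMs. With library totals 5 of 8 were up-regulated and 0 down-regulated in TAA vs control (median 1.99), and 5 of 8 were down-regulated in recovery vs TAA (median -1.44). Each count of up-regulated rows in TAA vs control and of down-regulated rows in recovery vs TAA includes miR-147-3p. It had no counts in control livers, 14 to 26 in TAA livers and 0 to 3 in recovery livers. It passed the count filter only through the TAA livers, so its calls are not independent support. Of all miRNAs tested, 25% were up-regulated and 16.7% down-regulated in TAA vs control with TMM scaling. In recovery vs TAA 14.5% were down-regulated and 10.2% up-regulated, and in recovery vs control 11.3% were DEMs. Library totals gave 57.4% up-regulated and 0.952% down-regulated in TAA vs control, and 46.1% down-regulated in recovery vs TAA.

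The 3 most abundant rows of that list differed among themselves. miR-146b-5p, which is induced by inflammatory signals, had 152 ± 23.9 CPM in control, 564 ± 132 CPM in TAA and 164 ± 15.9 CPM in recovery livers, a log2 fold change of 1.80 (edgeR FDR = 0.000341) and then -1.80 (FDR = 0.00054). miR-181a-5p, known from lymphocyte development, had a log2 fold change of 0.60 (FDR = 0.0165) and then -0.48 (FDR = 0.0651). miR-146a-5p, a relative of miR-146b-5p, had 480 ± 92.9, 452 ± 77.6 and 604 ± 214 CPM, and its log2 fold change in TAA vs control was -0.17 with TMM factors and 0.95 with library totals.

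Whole livers also hold red cells, and the blood left in the tissue carries leukocytes too. The 4 red cell miRNAs of a fixed list summed to 814.4–1362 CPM in control, 212.4–482.9 CPM in TAA and 342.01–644.1 CPM in recovery livers, and none was at 0. On the TPM scale the sums were 601.4–1029, 346.9–784.7 and 262–571.5. With TMM scaling 1 of 4, miR-451a, was a down-regulated DEM in TAA vs control (log2 fold change -1.71, edgeR FDR = 0.00273), and with library totals 0 of 4 were. Of all miRNAs tested, 16.7% and 0.952% were. In recovery vs control miR-451a was also a down-regulated DEM (-1.05, FDR = 0.0192), against 0.767% of all miRNAs tested. The 4 log2 fold changes there ran from -1.18 to -0.44, and with library totals 0 of 4 were DEMs. The summed counts of the 5 members per red cell count were 0.198, 0.255 and 0.164 in control livers, 0.806, 1.35 and 0.684 in TAA livers and 0.457, 0.351 and 0.377 in recovery livers. Each recovery liver lay between the 2 other groups on this ratio. miR-451a made up most of the red cell counts, with 9203 of 10172 in control replicate 1. With library totals its log2 fold change in TAA vs control was -0.59, and those of the remaining red cell rows were 0.10 to 0.17. What part the blood left in the tissue had in the members' levels was not tested.

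Lists of other liver cell types moved with the members in part. Of all miRNAs tested, 25% were up-regulated DEMs in TAA vs control and 14.5% were down-regulated in recovery vs TAA. The 3 stellate and fibroblast miRNAs were all up-regulated DEMs in TAA vs control (median log2 fold change 1.66) and all down-regulated in recovery vs TAA (median -1.28). They summed to 408.4–496.3 CPM in control, 1051–1612 in TAA and 573–596.1 in recovery livers. The 3 biliary epithelial miRNAs did the same (medians 2.73 and -1.92), with sums of 564.6–739.5, 3248–5470 and 1203–1371 CPM. Of the 3 hepatocyte miRNAs 2 were down-regulated DEMs in TAA vs control, against 16.7% of all miRNAs tested. In recovery vs TAA 1 was up-regulated, against 10.2%. With library totals 1 was up-regulated and 0 down-regulated in TAA vs control, against 57.4% and 0.952%. Neither endothelial miRNA was a DEM in any comparison, but both lay below control in every TAA liver in CPM (log2 fold changes -0.55 for miR-126a-3p and -0.81 for miR-126a-5p, edgeR FDR = 0.00371 and 0.00107) and above it in TPM. The same held for 27.4% of all miRNAs tested in CPM and for 73.3% in TPM. The members had 23.1–25.7 counts per 1000 endothelial counts in control, 47.9–52.1 in TAA and 18.7–26.3 in recovery livers. What part the changed makeup of the tissue had in the members' levels was not tested.

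**Figure D4:**
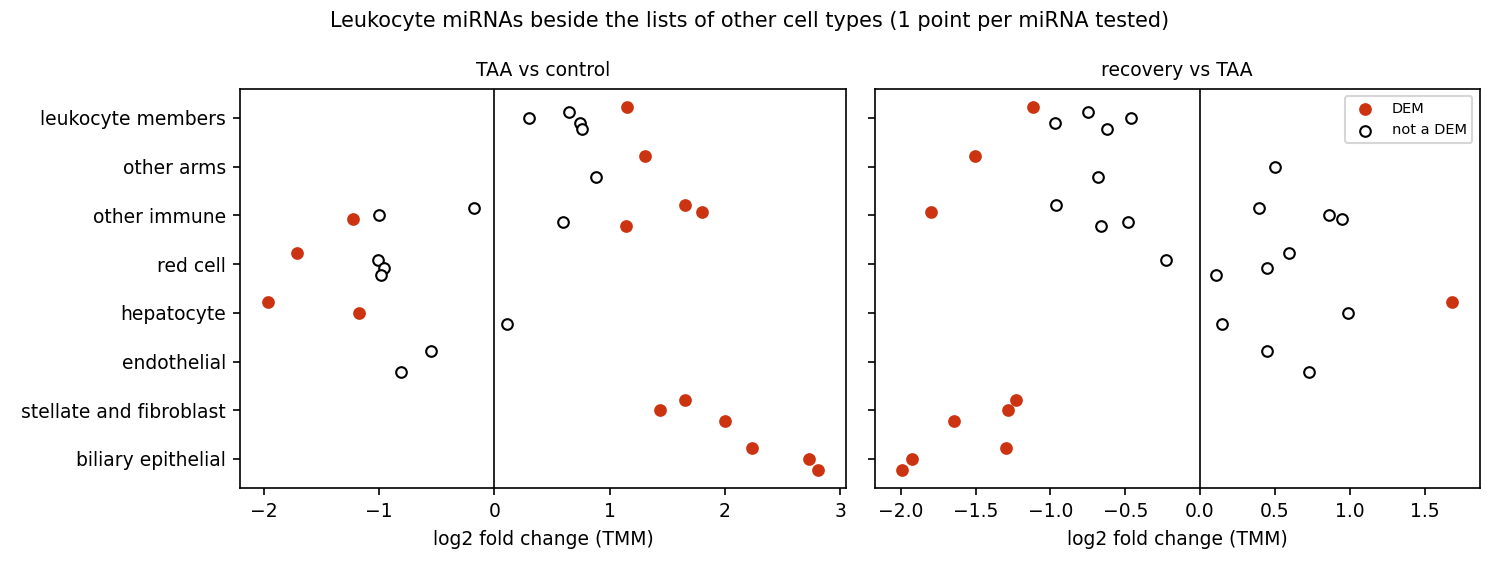
Log2 fold change (TMM) of each miRNA tested, by list, with TAA vs control on the left and recovery vs TAA on the right; filled points are DEMs, open points are not, and the horizontal axes differ. The row of the other immune list without counts in control livers, miR-147-3p, is not drawn. The members lie between 0.30 and 1.15 in the left panel, below the 3 stellate and fibroblast and the 3 biliary epithelial miRNAs.

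The miRNAs whose profiles over the 9 livers were most like those of the members were found among 220 rows with a mean of at least 10 CPM, by the root mean square difference of centred log2(CPM + 1). For miR-223-3p they were miR-132-5p (0.138), miR-129b-3p (0.192) and miR-129-5p (0.195), against a median of 0.712 over all candidates. For miR-150-5p they were miR-674-3p (0.175), miR-99b-3p (0.186) and miR-3074-5p (0.217). For miR-342-3p they were miR-99b-5p (0.216), miR-350-3p (0.216) and miR-99b-3p (0.226).

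For miR-142a-5p they were miR-3074-2-3p (0.146), miR-24-2-5p (0.146) and let-7e-5p (0.167), and for miR-142a-3p, whose profile varied more within groups, miR-1981-5p (0.284), let-7e-5p (0.285) and miR-425-5p (0.293). Among the members themselves the closest pair was the 2 arms of miR-142 (0.265) and the most distant was miR-223-3p and miR-142a-3p (0.442). These distances are a description without a test. Some of the like miRNAs are opposite-strand pairs with nearly equal counts and may hold the same reads, namely miR-129b-3p and miR-129-5p (1618 and 1634 counts in all) and miR-3074-2-3p and miR-24-2-5p (9449 and 9518).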

How the data were processed

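Small RNA libraries of 9 livers (3 control, 3 TAA and 3 recovery) were analysed. The mRNA libraries were not analysed here. The authors prepared the libraries by adapter ligation, sequenced single-end reads and aligned these with Bowtie to mm10 and the mature miRNAs of miRBase (Bowtie version 1.3.0 in the submitters' processing notes). They deposited the read count of each mature miRNA without normalization, and a TPM value that equalled the count as a share of the library total times 1000000 (largest difference 5e-05). How reads were assigned by strand, or between miRNAs that share them, was not given in the sources used here.

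Counts of each pair of groups were tested with edgeR (version 4.0.16, R 4.3.3) by the quasi-likelihood F test, after filterByExpr (minimum count 10) and TMM scaling, with Benjamini-Hochberg adjustment over all miRNAs tested. DEMs passed an FDR of 0.05 with at least 2-fold change. The authors' own test was DESeq2, run here as an alternative (version 1.42.0), beside limma (version 3.58.1) on log2(TPM + 1), other scalings and filters, and the removal of each replicate. The SE was taken from the F statistic. Ratios were log2 of counts plus 0.5. Counting error was larger than the spread between mice in 1 of 15 combinations of member and group, and Poisson intervals cover counting error only. The test script was run on simulated counts with equal numbers of rows set up and down. The changes set there were larger than the TMM fold changes of the members, so the simulation does not cover changes of that size.

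All members were named, as were the other arms of their hairpins, at most 3 rows of any other list (those with the highest mean CPM) and the 3 miRNAs most like each member. miR-147-3p and the arms of miR-511 were named after their values were seen. The members and lists were chosen with earlier results of these data known. Positions are from GENCODE M21 (GRCm38) and sequences from RefSeq (GRCm38.p6). Replicates shared numbers across groups but were different mice, and no replicates of a group agreed within sampling noise.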

Additional observations from a re-analysis of the deposited data

How the results depend on the processing

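No member changed direction in TAA vs control or recovery vs TAA under the 18 alternatives run for each. The number of members that were DEMs did change. In TAA vs control it was 1 and became 5 with library totals, 5 with limma on log2(TPM + 1), 4 by FDR alone and 4 with library totals without the 5 most abundant rows, an alternative chosen after seeing the data. Of all miRNAs tested, 50.2% were up-regulated with limma and 39.3% without the 5 most abundant rows. In recovery vs TAA it was 1 and became 5, 5, 3 and 4 under these alternatives, and 2 when a mean of at least 10 CPM was required. Of all miRNAs tested, 35.5% were down-regulated with limma, 28% without the 5 most abundant rows and 16.1% at a mean of at least 10 CPM. Leaving out each replicate gave 0 to 1 members in TAA vs control and 0 to 1 in recovery vs TAA. With the replicate number as a block (replicate block) the counts were 1, 1 and 0 in the 3 comparisons, and miR-342-3p lost its FDR call in recovery vs TAA (0.101). Deviations of same-numbered mice correlated between -0.241 and 0.242, so the numbers were not taken to pair mice.

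In recovery vs control the signs, none past the threshold, depended on the setting. miR-142a-3p became positive with library totals (0.17), at a mean of at least 10 CPM (0.038), with limma (0.0604), with all 9 samples in the fit (0.0021), without the pair mmu-miR-122b-3p and mmu-miR-122-5p (0.0078) and with library totals without the 5 most abundant rows (0.026). miR-142a-5p became positive with library totals (0.11) and limma (0.051), and miR-150-5p with library totals (0.0302) and limma (0.023). Leaving out each replicate moved the log2 fold change from -0.13 to 0.25 for miR-223-3p, from -0.37 to 0.24 for miR-142a-3p, from -0.26 to 0.13 for miR-142a-5p and from -0.0201 to 0.37 for miR-342-3p. It moved the log2 ratio difference of miR-142a-5p to miR-142a-3p from -0.45 to -0.12 (TAA vs control), from 0.11 to 0.53 (recovery vs TAA) and from -0.14 to 0.21 (recovery vs control), that of miR-223-3p to miR-150-5p from -0.45 to 0.0317 (recovery vs TAA) and from -0.0350 to 0.44 (recovery vs control), and that of miR-342-3p to miR-150-5p from -0.14 to 0.23 (TAA vs control). The causes were not tested. With all 9 samples in the fit miR-142a-3p lost its FDR call in TAA vs control (0.0565), and without a filter on low counts it gained one in recovery vs TAA (0.0272). With 3 mice per group, fold changes near 2 depended on single mice.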
